A study of Danio rerio with 28 samples.

Results

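The comparison described here set mir430-/- zebrafish embryos that had been injected with miR430 against wild type embryos at the 1024c (1024-cell) stage, in RNA made after the injection of a labelled nucleotide. Its members were the 6 libraries labelled 1024c and treated with iodoacetamide (IAA), 3 per genotype, of 28 libraries in all. The mutant embryos carry a deletion of the mir430 locus and received s4UTP together with a miR430 solution. The wild type embryos received s4UTP without that solution, so genotype and miR430 injection changed together and cannot be told apart. Each library came from whole embryos, which were called synchronized in the labels, and the 3 libraries of a group were called biological replicates without a clutch being named. The p-values therefore measure the spread between these libraries. The wild type 1024c library without IAA was not used. The other 18 IAA libraries, of 256c, Oblong and Sphere in both genotypes, shared the model and gave the values at other stages.

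At the 1024-cell stage the zebrafish embryo is passing into zygotic genome activation, when its own genome starts to be transcribed at scale and RNA laid down by the mother is cleared. The mir430 cluster is among the earliest and most strongly transcribed loci of that period, and its microRNAs promote the decay of maternal mRNA. The locus also gathers RNA polymerase into large transcription bodies, and the title of the study names the kinase CDK9, which releases paused polymerase, as something these bodies hold. The injected miR430 supplies the microRNA without the locus. The question put by the comparison is which transcripts are made differently when the locus is missing and its product is present.

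The libraries held 4960211, 13663236 and 13803137 counts in mutant replicates 1 to 3 and 6361799, 9883430 and 11931960 in wild type replicates 1 to 3, of which most came from the mitochondrial genome. Nuclear genes took 8.45, 4.08 and 6.24% of counts in the mutant libraries and 7.17, 5.18 and 6.37% in the wild type ones (means 6.26% ± 2.19 and 6.24% ± 1.01, SD, n = 3 each). An exact two-sided permutation test of these shares gave p = 1, where the smallest p that 3 against 3 libraries allow is 0.1. The chromosome 4 mir430 genes (54 genes between 28693371 and 28709534, GRCz11) served as a check of the labels. They had 55, 14 and 4 counts in the mutant libraries, against 36548, 40231 and 213074 counts in the wild type libraries. These made up 0.0131, 0.00251 and 0.000464% of nuclear counts in the mutant and 8.01, 7.87 and 28.0% in wild type (exact permutation p = 0.1, the smallest possible), so every mutant library lay far below every wild type one. Wild type replicate 3 stood apart with the highest share, and without it the mean difference was -7.93 percentage points in place of -14.6. The wild type libraries numbered 3 also had the highest share of their group at 256c, Oblong and Sphere (14.2, 9.19 and 5.22%).

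Libraries of the same group differed in the share of counts from genes that rise during activation. As a measure, genes were sorted by the wild type course from 256c to Sphere. This comparison sets no 1024c library against another, but it came from the same model, whose gene filter, scaling and dispersions included the 1024c libraries. The genes that rose along it took 27.8, 65.6 and 58.5% of nuclear counts outside mir430 in mutant replicates 1 to 3 and 32.3, 41.2 and 58.0% in wild type replicates 1 to 3. Genes that fell along it took 15.7, 4.17 and 5.34% in the mutant and 14.6, 11.5 and 4.09% in wild type. Mutant replicate 1 and wild type replicate 1 were thus low in rising genes, mutant replicates 2 and 3 and wild type replicate 3 were high, and the genotypes overlapped (exact permutation p = 0.7 and 1). Across 12412 genes the log2 values of mutant replicate 1 correlated with those of mutant 256c replicate 1 at r = 0.89, and with those of mutant 1024c replicates 2 and 3 at 0.56 and 0.64. Among the other 23 IAA libraries the 256c library ranked first for it, and mutant 1024c replicates 3 and 2 ranked 7 and 12. It was not alone in ranking a library of another stage first. Mutant replicate 2 did so with mutant Oblong replicate 1 (r = 0.80) and mutant replicate 3 with mutant 256c replicate 3 (0.85). Wild type replicate 3 did so with wild type Oblong replicate 3 (0.80), while wild type replicates 1 and 2 ranked each other first (0.86). By this measure these 4 libraries lay nearest to a library of another stage. For mutant replicates 1 and 3 and wild type replicate 3 that library carried the same replicate number. Mutant replicate 3 also correlated almost as well with mutant Oblong replicate 1 (0.848) as with its 256c library (0.852). Whether the stage labels hold, and what part the replicate number has, was not tested. These r values describe libraries that share the same genes and are not tests. Results are also given without mutant replicate 1 and wild type replicate 3, because mutant replicate 1 was the mutant library lowest in rising genes and wild type replicate 3 the wild type library highest in them, a choice made after the data had been seen.

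**Figure D1:**
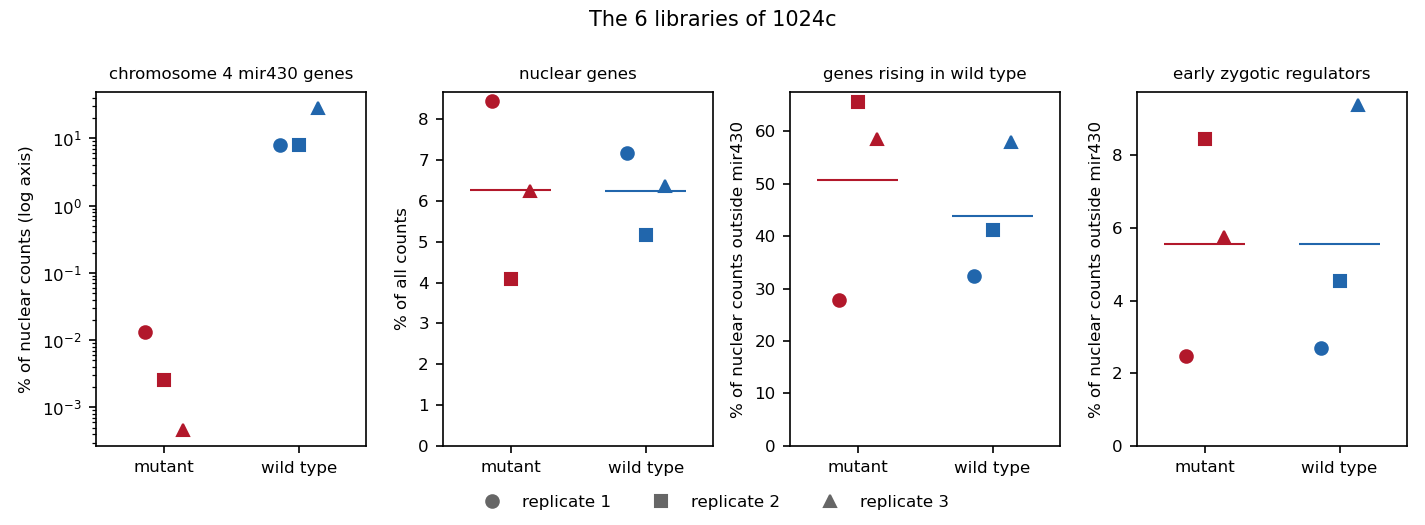
Each point is 1 library of 1024c, with the mutant left of wild type in each panel and a horizontal line at the group mean in the 3 panels other than that of mir430. From left to right, the vertical axes are the share of nuclear counts in chromosome 4 mir430 genes (log axis), the share of all counts in nuclear genes, and the shares of nuclear counts outside mir430 in genes that rise along the wild type course and in the list of early zygotic regulators. The genotypes are separate in the mir430 panel and overlap in the other panels.

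Values below are counts scaled to each library's TMM-adjusted sum of nuclear counts outside mir430, given as counts per 1000000 (CPM). They compare libraries and not genes of unequal length. Of 12498 genes tested by edgeR's quasi-likelihood test, 232 were higher in the mutant (1.86% of genes tested) and 267 were lower (2.14%) at an adjusted p under 0.05. Of the lower genes, 47 were mir430 genes out of 49 tested, which leaves 220 lower genes outside the locus (1.77% of 12449). The median log2 fold change over all genes tested was 0.01, and 2219 genes had an unadjusted p under 0.05. In 487 of the 499 called genes the 3 mutant and 3 wild type libraries did not overlap, against 18.7% of all genes tested. The calls rest on the same values, so this describes the called genes and is no support for the calls. The called changes were large: the median log2 fold change was 3.63 among the higher genes and -3.39 among the lower genes outside mir430, and the smallest were 1.90 and -1.66. In counts simulated for this comparison with 12179 genes, the test found 3 of 50 planted changes of 2 log2 units, 25 of 50 of 3 units and 45 of 50 of 4 units. Changes of 2 units thus mostly went uncalled in the simulation. It gave 76 calls, against 499 in the data, so its cut on the unadjusted p was stricter. The parts of depth and of spread between libraries were not tested. The changes were planted only in nuclear genes above a minimum mean count, so these shares do not cover genes of lower count. DESeq2 called 557 genes higher and 433 lower. Without wild type replicate 1, 2 or 3, 98, 97 or 137 genes were higher, and without mutant replicate 1, 2 or 3 and wild type replicate 1 or 2, 127, 158, 119, 136 or 133 were lower. Without mutant replicate 1, 254 were higher, and without both it and wild type replicate 3, 141 were higher and 104 lower.

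**Figure D2:**
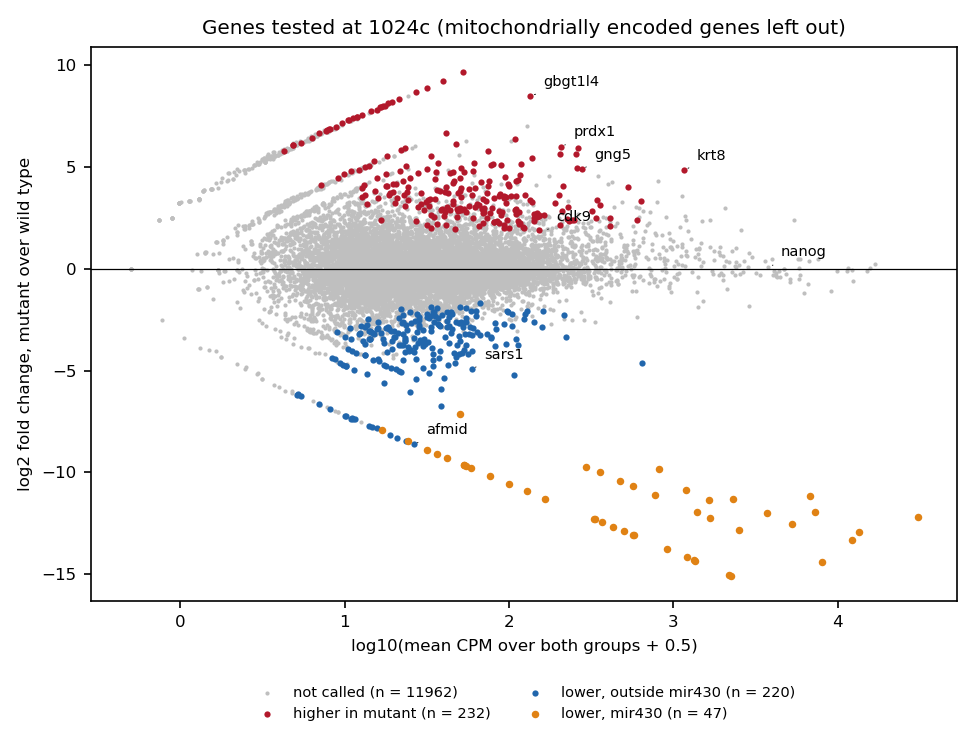
Each point is 1 gene tested at 1024c, mitochondrially encoded genes left out, placed by the mean CPM over both groups (log10 scale, 0.5 added) and by the log2 fold change of mutant over wild type. The 232 genes higher in the mutant and the 220 lower genes outside mir430 lie beyond 1.66 log2 units on either side of 0, and 47 mir430 genes lie at the bottom. Points along the outer diagonals are genes with no or few counts in either group.

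The rises with the smallest adjusted p were in prdx1 and gbgt1l4. prdx1 (chromosome 2, 6104378 to 6115688, GRCz11) encodes a peroxiredoxin, an enzyme that reduces peroxides. It had 399.8, 492 and 328 CPM in mutant replicates 1 to 3, against 4.95, 8.39 and 5.24 CPM in wild type replicates 1 to 3 (log2 fold change 5.99, SE 0.75, adjusted p = 0.00017). Its neighbour gng5 (chromosome 2, 6243144 to 6249163), a gamma subunit gene of heterotrimeric G proteins, had 549, 559 and 499 CPM in the mutant libraries and 11.5, 28.5 and 13.1 CPM in the wild type libraries (log2 fold change 4.89, SE 0.70, adjusted p = 0.000226). In both genes the mutant libraries lay close together and far above the highest wild type library, and the naming rule required groups that do not overlap. The glycosyltransferase gene gbgt1l4 (chromosome 5, 23788592 to 23805387) had 411, 184 and 211 CPM in the mutant and a single count in 1 of 3 wild type libraries, which puts mutant over wild type at 440.0 (95% counting interval 78.6 to 17414; adjusted p = 0.00017).

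Other rises with small adjusted p came from genes of unlike function. sf3a2, which encodes a subunit of the U2 snRNP splicing factor SF3A, had 93.3, 141 and 119.9 CPM in the mutant libraries and 3.30, 3.36 and 2.62 CPM in the wild type libraries (log2 fold change 5.17, SE 0.73, adjusted p = 0.000226). In each gene of this group the 3 mutant libraries lay above the 3 wild type libraries, which the naming rule required. rnaseh1, whose product cuts the RNA strand of RNA-DNA hybrids, had 142, 155 and 155 CPM in the mutant against 4.95, 6.71 and 0 CPM in wild type (adjusted p = 0.000528). thoc7, of the THO complex that couples transcription to mRNA export, rose to 250.5, 131 and 178 CPM in the mutant, against 8.24, 10.1 and 13.1 CPM in wild type (log2 fold change 4.16). lsm4 belongs to the LSm ring that binds U6 RNA and decaying mRNA. It had 180.5, 141 and 165 CPM in the mutant libraries and 8.24, 16.8 and 13.1 CPM in the wild type libraries (log2 fold change 3.66, adjusted p = 0.000908). ddost encodes a subunit of the oligosaccharyltransferase that attaches N-glycans in the endoplasmic reticulum. It had 277, 97.9 and 148 CPM in the mutant against 6.60, 5.04 and 2.62 CPM in wild type (log2 fold change 5.11, adjusted p = 0.000226). ap1s3b, a sigma subunit gene of the AP-1 clathrin adaptor, had 193, 112 and 133 CPM in the mutant and 3.30, 1.68 and 2.62 CPM in wild type (log2 fold change 5.78). The ubiquitin ligase gene ubr4 had 266, 215 and 130.1 CPM in the mutant and 21.4, 6.71 and 23.6 CPM in wild type (log2 fold change 3.57, adjusted p = 0.000623). These genes, prdx1, gng5 and gbgt1l4 were called under each of the 14 alternatives run for them.

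Called rises of high level included mki67, uhrf1, tia1l, pfn2 and eif4g2a, and krt8, given below with the enveloping layer. mki67, the proliferation marker that coats mitotic chromosomes, had 986, 1077 and 942 CPM in the mutant libraries and 176, 206 and 199 CPM in the wild type libraries. The groups did not overlap, which the naming rule required (log2 fold change 2.37, SE 0.66, adjusted p = 0.0397). The call was lost when any 1 of the 6 libraries was left out, and its adjusted p reached 0.151 over the alternatives. uhrf1 encodes a protein that reads hemimethylated DNA and recruits the maintenance DNA methyltransferase. It had 854, 625 and 396 CPM in the mutant against 62.7, 50.4 and 65.6 CPM in wild type (log2 fold change 3.39, SE 0.67, adjusted p = 0.00378). tia1l, related to the RNA-binding protein of stress granules, had 983, 403 and 532 CPM in the mutant and 72.6, 68.8 and 78.7 CPM in wild type (log2 fold change 3.12). pfn2, an actin-binding profilin gene, had 933, 699 and 450.4 CPM in the mutant and 147, 111 and 115 CPM in wild type (log2 fold change 2.48, adjusted p = 0.0115). eif4g2a, a translation initiation factor gene, had 1106, 313 and 591 CPM in the mutant and 214, 181 and 73.4 CPM in wild type (adjusted p = 0.0486). uhrf1 remained called under each of its 14 alternatives, tia1l under 13, pfn2 under 10 and eif4g2a under 4.

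In 31 of the 232 higher genes the wild type libraries of 1024c had no count at all, so the size of the rise has only a lower bound, computed with 3 counts over the wild type group. mmachc, which processes vitamin B12, had 24.9, 69.2 and 32.2 CPM in the mutant and was at least 20.3-fold higher (adjusted p = 0.00114). polr2d, which encodes the RPB4 subunit of RNA polymerase II, had 29.6, 23.9 and 14.6 CPM in the mutant and was at least 11.8-fold higher (adjusted p = 0.00641). hspb11 had 3.11, 54.9 and 42.4 CPM in mutant replicates 1 to 3, a rise of at least 16.3-fold, and its identifier is now named hspb9l, a small heat shock protein gene. cntn3b, a contactin gene of neural cell adhesion, had 12.4, 43.0 and 13.2 CPM in mutant replicates 1 to 3, a rise of at least 10.6-fold. Further members were trhde.2 (at least 15.1-fold), dicp1.3-4 (at least 15.4-fold), nyap2b (at least 14.2-fold), alp3, an alkaline phosphatase gene (at least 11.5-fold), btbd2a (at least 11.2-fold), wscd1b (at least 7.86-fold) and lim2.3 (at least 7.86-fold). Over the 9 wild type libraries of 256c, Oblong and Sphere the 31 genes had a median of 34 counts each, against a median of 319 in the 9 mutant libraries, and 2 of them had none. The largest mutant value lay in replicate 2 for nyap2b, alp3, trhde.2, hspb11, wscd1b, cntn3b and mmachc, in replicate 1 for dicp1.3-4, btbd2a and polr2d, and in replicate 3 for lim2.3. mmachc, polr2d, hspb11 and cntn3b remained called under each alternative run for them, and nyap2b, trhde.2, dicp1.3-4, alp3, btbd2a, wscd1b and lim2.3 each lost the call in at least 1.

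Among the falls outside mir430, 18 genes had no count in the mutant libraries of 1024c. afmid (chromosome 11, 45139300 to 45153006), the kynurenine formamidase of tryptophan breakdown, had 64.3, 35.3 and 55.1 CPM in wild type replicates 1 to 3 and lay at least 29.8-fold lower in mutant embryos (adjusted p = 0.00123). alpk2, an alpha kinase gene, had 52.8, 62.1 and 23.6 CPM in wild type and lay at least 28.7-fold lower in mutant embryos (adjusted p = 0.00339). cenpo, a kinetochore protein gene, had 41.2, 36.9 and 44.6 CPM in wild type and was at least 23.5-fold lower (adjusted p = 0.00339). These 3 remained called under each of their 14 alternatives. adprhl2, which removes ADP-ribose from proteins, was at least 12.9-fold lower, mpp2a at least 12.5-fold, lsm8 at least 8.45-fold and the lipase gene lipia at least 7.35-fold. lsm8 remained called under each of its 12 alternatives and adprhl2 under 10 of 12, the call being lost without mutant replicate 3. The calls of mpp2a (5 of 12) and lipia (3 of 12) were lost without any mutant library and without wild type replicate 1 or 2, and that of lipia also without wild type replicate 3. Over the other stages the 18 genes had a median of 10 counts each in the 9 mutant libraries, against 108 in the 9 wild type libraries, and each had a count in at least 1 mutant library.

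The remaining large falls left a few counts in the mutant. cbr1l, a carbonyl reductase gene, had a single count in the mutant and 33.0, 80.6 and 113 CPM in wild type, which puts wild type over mutant at 122 (95% counting interval 21.5 to 4876; adjusted p = 0.000362). sept10, a septin gene, likewise had a single mutant count and 44.5, 53.7 and 47.2 CPM in wild type (wild type over mutant 84.9, interval 14.8 to 3395). ralgapa1, the catalytic subunit of a GTPase activator for Ral, had 3 mutant counts and 127, 55.4 and 49.8 CPM in wild type (wild type over mutant 47.4, interval 15.9 to 233). Wild type exceeded the mutant in each library of these 3 genes, which the naming rule required. ttc39c had 3 mutant counts as well, with 125, 45.3 and 18.4 CPM in wild type, and its call was lost without mutant replicate 2 or 3 or wild type replicate 1.

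Falls with small adjusted p came from genes of unlike function. eef1akmt2, whose product methylates a lysine of the elongation factor eEF1A, had 1.56, 2.39 and 4.39 CPM in the mutant libraries and 42.9, 47.0 and 49.8 CPM in the wild type libraries (log2 fold change -3.98, SE 0.65, adjusted p = 0.000793). sars1, the seryl-tRNA synthetase gene, had 4.67, 7.16 and 0 CPM in the mutant against 106, 151 and 83.9 CPM in wild type (log2 fold change -4.92, adjusted p = 0.00222). gtf3ab encodes TFIIIA, the factor that starts 5S ribosomal RNA transcription. It had 15.6, 11.9 and 19.0 CPM in the mutant and 242, 260.2 and 131 CPM in wild type (log2 fold change -3.75, SE 0.68, adjusted p = 0.00185). vps4b, the ATPase that disassembles ESCRT-III, had 9.33, 2.39 and 7.31 CPM in the mutant and 109, 92.3 and 65.6 CPM in wild type (log2 fold change -3.73). tomm70a, a receptor for import into mitochondria, had 14.0, 16.7 and 8.77 CPM in the mutant and 64.3, 101 and 78.7 CPM in wild type (log2 fold change -2.63, SE 0.49, adjusted p = 0.00239). adck2, an atypical kinase gene, had 3.11, 4.77 and 2.92 CPM in the mutant and 125, 92.3 and 49.8 CPM in wild type (log2 fold change -4.63). In each of the 6 genes every mutant library lay below every wild type library, which the naming rule required. Each remained called under its 14 alternatives.

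Called falls of high level included psip1b, srsf7a, git1, raver1, xrn1 and ncoa6, and some clone-named genes outside the naming rule had a higher wild type level. psip1b, of the chromatin-binding LEDGF family, had 96.5, 81.2 and 45.3 CPM in the mutant and 463, 409.6 and 202 CPM in wild type (log2 fold change -2.27, adjusted p = 0.0475). xrn1, the exonuclease that degrades decapped mRNA from its start, had 54.5, 33.4 and 57.0 CPM in the mutant and 213, 238 and 173 CPM in wild type (log2 fold change -2.10, adjusted p = 0.0162). srsf7a, a splicing regulator of the SR family, had 38.9, 74.0 and 71.7 CPM in the mutant and 219, 388 and 176 CPM in wild type (log2 fold change -2.09, adjusted p = 0.0366). git1, raver1 and ncoa6 had log2 fold changes of -2.85, -2.61 and -2.24, and raver1 rested on a wild type replicate 2 of 512 CPM, where the other wild type libraries had 107 and 115 CPM. The call of psip1b lay near the threshold, and each of the 6 calls was lost under some of the alternatives. Those of psip1b, srsf7a, git1 and ncoa6 were lost without any of the 3 mutant libraries and without wild type replicate 1 or 2, with adjusted p of up to 0.192, 0.187, 0.139 and 0.264 over the alternatives. raver1 was lost without any mutant library or wild type replicate 2, and xrn1 without mutant replicate 2 or 3 or wild type replicate 1 or 2, with adjusted p of up to 0.343 and 0.15.

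**Figure D3:**
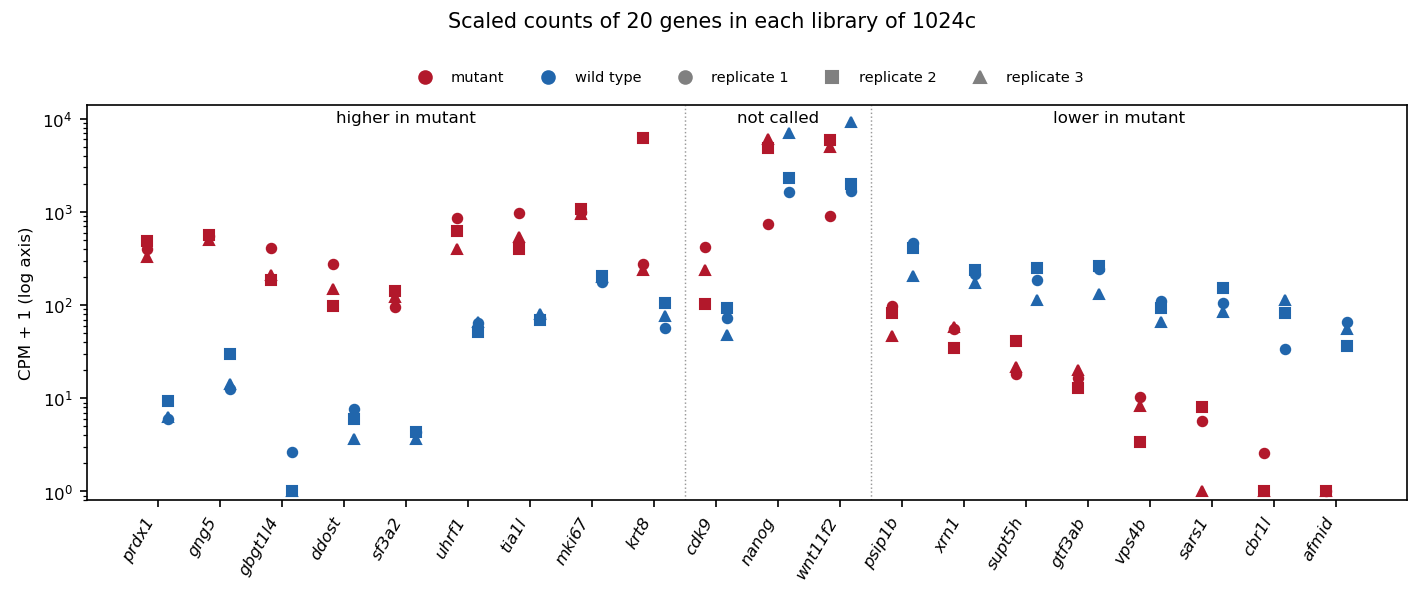
CPM plus 1 (log axis) in each library of 1024c for 20 genes, the 3 mutant libraries left of the 3 wild type ones and the marker shape giving the replicate number. The mutant libraries lie above the wild type ones for the 9 genes on the left and below them for the 8 on the right, and in the middle cdk9 is apart without passing the test while nanog and wnt11f2 overlap. Most of the called genes drawn were named by a rule that asks for groups that do not overlap.

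The genes called at 1024c were followed at the other stages, whose libraries are separate but were fitted in the same model. Like-numbered libraries of a genotype shared some traits across stages, and neither these calls nor the tests of stage differences below took account of it. A gene's dispersion was estimated over all stages, so a gene called at 1024c is easier to call at another stage. The shares called at other stages are therefore not independent of the choice at 1024c. Of the 232 higher genes, 181 were also called higher at 256c, 63 at Oblong and 19 at Sphere, where 10.6%, 0.656% and 0.304% of all genes tested were called higher. At these stages 232, 232 and 216 of them had a positive log2 fold change, against 64.5%, 53.3% and 45.1% of all genes tested. Of the 220 lower genes outside mir430, 148 were called lower at 256c, 52 at Oblong and 16 at Sphere, where 2.88%, 1.11% and 0.672% of all genes tested, mir430 included, were called lower. A negative log2 fold change was seen for 216, 217 and 196 of them, against 34.3%, 46.7% and 54.9% of all genes tested. No gene of either set was called the opposite way at another stage. The median log2 fold change of the higher genes was 3.66 at 256c and 3.63 at 1024c, with 2.13 at Oblong and 1.06 at Sphere, and that of the lower genes was -2.81, -3.39, -2.09 and -1.22 at these stages. Since the sets were chosen on the 1024c values, the decline of both medians after 1024c is a description and was not tested. Of the 2 sets, 38 higher and 63 lower genes were called at 1024c and at no other stage.

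Values at the other stages varied from gene to gene. gbgt1l4, prdx1 and ap1s3b were called higher at all 4 stages, with log2 fold changes at Sphere of 6.27, 2.73 and 4.91. cenpo, cbr1l, ttc39c, adprhl2, tdrd5 and hmgcrb were called lower at all 4 stages, with log2 fold changes at Sphere between -5.19 and -3.05. mmachc had log2 fold changes of 8.47 at 256c, 1.96 at Oblong and 0.55 at Sphere, and tomm70a of -3.04, 0.05 and 0.31. The wild type libraries of 256c had no count of mmachc, so its 8.47 is no measured size. The Pim-related kinase gene pimr201 had 1.56, 0 and 13.2 CPM in the mutant at 1024c and 39.6, 133 and 451 CPM in wild type (log2 fold change -5.24, adjusted p = 0.00968), with a log2 fold change of 0.04 at 256c and of -4.66 and -4.16 at Oblong and Sphere. Its call was lost without wild type replicate 3, and its adjusted p ran up to 0.113 over the alternatives. Tested as a difference between stages, the genotype effect at 1024c departed from that at 256c for 0 genes by edgeR (1126 with an unadjusted p under 0.05, and 240 by DESeq2), from that at Oblong for 1 gene, lsm8 (0.008% of those tested; 201 unadjusted, 1 by DESeq2) and from that at Sphere for 0 genes (725 unadjusted, 21 by DESeq2).

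**Figure D4:**
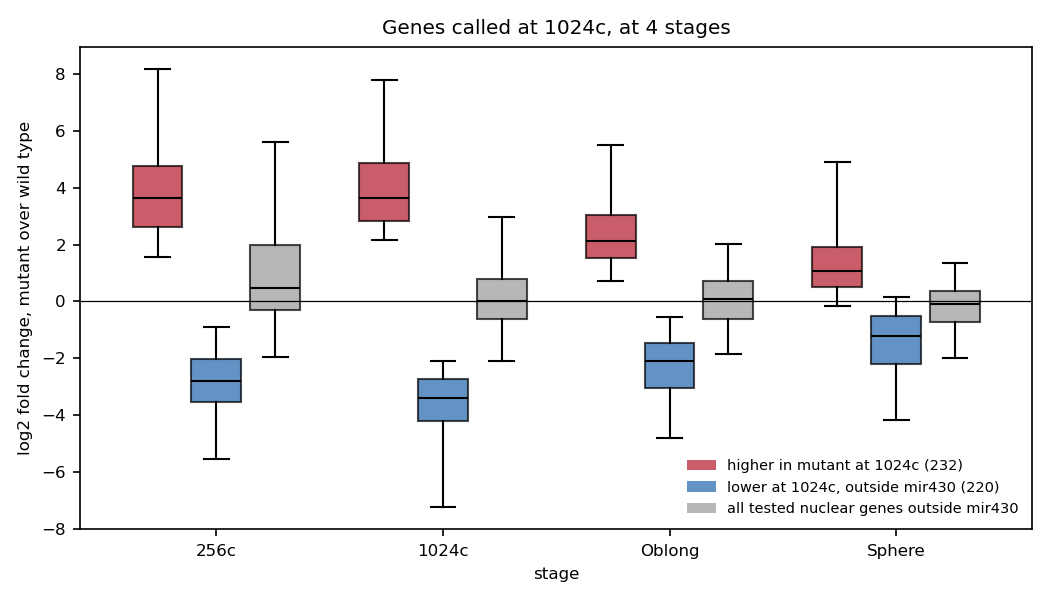
Log2 fold changes of mutant over wild type at 4 stages for the 232 genes higher at 1024c, the 220 genes lower at 1024c outside mir430 and all tested nuclear genes outside mir430. Boxes span the quartiles with the median as a line and whiskers reach the 5th and 95th percentiles. The called sets stay on their own sides at 256c and Oblong and come nearest to 0 at Sphere, where their medians are 1.06 and -1.22.

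The called genes were then set against the wild type course of activation. Of 4399 genes that rise from 256c to Sphere in wild type, 93 were higher and 12 lower in the mutant at 1024c (2.11% and 0.273%), with a median log2 fold change of 0.38. Of 1357 genes that fall along that course, 15 were higher and 64 lower (1.11% and 4.72%), with a median of -0.28. The other 6656 genes gave 124 higher and 144 lower (1.86% and 2.16%) and a median of -0.12. Over all genes tested 1.86% were higher, and outside mir430 1.77% were lower, so the share of rising genes called higher was near that over all genes. The median moved with single libraries: that of the rising genes was 0.75, 0.04 and 0.11 without mutant replicate 1, 2 or 3, and 0.20, 0.32 and 0.77 without wild type replicate 1, 2 or 3. The number of rising genes called higher was between 28 and 137 in these fits, where between 97 and 254 of all genes tested were called higher. Without both mutant replicate 1 and wild type replicate 3 the median was 1.16, and the part of library timing in these counts was not tested. Over all genes, 42 of the 232 rises and 32 of the 220 falls were called under each of the 14 alternatives, and 73 and 42 in each fit that left out a single library.

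Early zygotic regulators, the transcription factors switched on in the initial wave, were abundant and variable. Of 41 tested, 2 rose and none fell (4.88% called, against 3.99% of all genes tested). The median log2 fold change was 0.65, against 0.01 over all genes tested. Their summed level was 16080.1, 112465 and 72275 CPM in mutant replicates 1 to 3 and 18599.7, 35978 and 134680.0 CPM in wild type replicates 1 to 3, so replicate 1 was lowest in both genotypes and the groups overlapped. foxa2, a forkhead factor of endoderm and axial mesoderm, had 68.5, 1389 and 46.8 CPM in the mutant and 3.30, 11.8 and 15.7 CPM in wild type (log2 fold change 5.63, SE 1.60, adjusted p = 0.0475). her12, a hairy-related repressor, had 160.2, 998 and 40.9 CPM in the mutant and 6.60, 5.04 and 13.1 CPM in wild type (log2 fold change 5.62, SE 1.38, adjusted p = 0.0206). Both rises were far larger in mutant replicate 2 than in the other mutant libraries, and without it the log2 fold changes were 2.52 (adjusted p = 0.449) and 3.64 (adjusted p = 0.14). Both calls were also lost without any 1 of the wild type libraries. The list median was 1.19, 0.10 and 0.53 without mutant replicate 1, 2 or 3 and 0.32, 0.29 and 1.83 without wild type replicate 1, 2 or 3. At 256c the list median was 4.83 with 29 of 41 members higher, where 10.6% of all genes tested were called higher. The list median was 0.78 at Oblong and 0.10 at Sphere, with none called at these later stages.

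The most abundant members of this list spread widely between libraries. klf17 had 1886, 14316 and 13498 CPM in the mutant and 4779, 9167 and 30825 CPM in wild type, and vox, a ventral repressor, had 1234, 6959 and 9245 CPM in the mutant and 2442, 5835 and 28556 CPM in wild type. In both genes wild type replicate 3 was highest and mutant replicate 1 lowest. Neither passed the test (adjusted p = 0.835 and 0.656). klf17, vox and aplnrb lie outside the naming rule and were chosen after their values were seen, for their level. aplnrb, the apelin receptor of gastrulation movements, had 4292, 21969 and 945 CPM in the mutant and 557, 1242 and 3391 CPM in wild type (adjusted p = 0.248), with mutant replicate 2 highest by a wide margin.

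Of 15 maternal activators, the factors that open and start zygotic genes, none rose and 1 fell (6.67% called, against 3.99% of all genes tested). nfyba, a subunit gene of the CCAAT-binding factor NF-Y, had 3.11, 4.77 and 4.39 CPM in the mutant and 31.3, 40.3 and 39.3 CPM in wild type (log2 fold change -3.15, SE 0.87, adjusted p = 0.0381), and its call was lost when any 1 library was left out. The pioneer factor gene nanog had 745, 4875 and 6069 CPM in the mutant and 1626, 2327 and 7052 CPM in wild type (log2 fold change 0.09, adjusted p = 0.98). foxh1, a Nodal-responsive factor, had 446, 2578 and 2236 CPM in the mutant and 313, 577 and 2295 CPM in wild type (log2 fold change 0.72, adjusted p = 0.752). For both the libraries of the genotypes overlapped over a range of several fold.

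Of 32 genes of Nodal, BMP, Wnt and FGF signalling, 1 rose and none fell (3.1% called, against 3.99% of all genes tested), with a list median of 0.35. The riser was il17rd, which encodes Sef, a membrane inhibitor of FGF signalling. It had 162, 45.4 and 49.7 CPM in the mutant and 6.60, 1.68 and 5.24 CPM in wild type (log2 fold change 4.23, SE 0.74, adjusted p = 0.00126), and it remained called under each of its 14 alternatives. wnt11f2, a ligand of convergent extension, had 895, 5884 and 5020.3 CPM in the mutant and 1674, 2009 and 9163 CPM in wild type (adjusted p = 0.972). dusp6, the phosphatase that dampens FGF-driven ERK signalling, had 311, 4087 and 3568 CPM in the mutant and 749, 1449 and 4219.6 CPM in wild type (adjusted p = 0.919). As among the early regulators, replicate 1 of the mutant was lowest in both of these genes.

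Markers of the lineages present in a whole embryo at this stage were examined as lists. The enveloping layer is the outer epithelium, and 2 of its 16 tested genes rose and none fell (12.5% called, against 3.99% of all genes tested). krt8, a keratin gene, had 277, 6228 and 238 CPM in the mutant and 56.1, 104 and 76.1 CPM in wild type (log2 fold change 4.83, SE 1.12, adjusted p = 0.0132), and eppk1, the epiplakin gene that binds keratin filaments, had 7.78, 611 and 26.3 CPM in the mutant and 0, 6.71 and 0 CPM in wild type (log2 fold change 6.38, adjusted p = 0.0204). Both were dominated by mutant replicate 2, without which the log2 fold changes were 1.71 (adjusted p = 0.367) and 2.74 (adjusted p = 0.358). Both calls were also lost without wild type replicate 1 or 3, and that of krt8 without wild type replicate 2. The summed level of the enveloping layer list was 1063, 14087 and 7835 CPM in the mutant libraries and 2214, 3738 and 11361 CPM in the wild type libraries, and 3 of its 24 members had no count in the 6 libraries. None of 10 yolk syncytial layer genes was called by edgeR (2 had an unadjusted p under 0.05, and DESeq2 called 1 higher). Among all 12498 genes tested, 2219 had such a p, and DESeq2 called 557 higher and 433 lower. The summed level of the yolk syncytial layer list was 3465, 22614 and 13240.1 CPM in the mutant and 2838, 5284 and 19810.2 CPM in wild type. mxtx2, the homeobox regulator of that layer, had 2016, 11867 and 6092 CPM in the mutant and 1326, 2714 and 10351 CPM in wild type. The genotypes overlapped in the summed level of both lists, and the enveloping layer median was 1.23, with 0.52 without mutant replicate 2 and 2.04 without wild type replicate 3.

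Germ plasm and oocyte genes are known for RNA laid down by the mother, while these libraries were enriched for RNA made after the injection. How much of their counts is maternal RNA carried through the enrichment was not tested. Of 16 germ plasm genes 1 fell and none rose (6.25% called, against 3.99% of all genes tested). tdrd5, a tudor domain gene, had 3.11, 0 and 4.39 CPM in the mutant and 33.0, 33.6 and 26.2 CPM in wild type (log2 fold change -3.44, SE 0.76, adjusted p = 0.00968). buc, the organizer of germ plasm, had 386, 198 and 135 CPM in the mutant and 341, 206 and 144 CPM in wild type (adjusted p = 0.988). The summed germ plasm level was 1254, 738 and 1022 CPM in the mutant and 1123, 953 and 774 CPM in wild type, so the groups overlapped. Of 10 zona pellucida genes, which code for the egg coat, zp3a.2 rose with 49.8, 81.2 and 99.4 CPM in the mutant and 4.95, 0 and 10.5 CPM in wild type (log2 fold change 3.99, adjusted p = 0.0302). Its call was lost without mutant replicate 2 or 3 and without wild type replicate 1 or 2, with an adjusted p of up to 0.149. The other zona pellucida genes did not pass, zp3f.1 and zp3 being the most abundant, with adjusted p of 0.723 and 0.227. In this list 10% was called, against 3.99% of all genes tested.

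**Figure D5:**
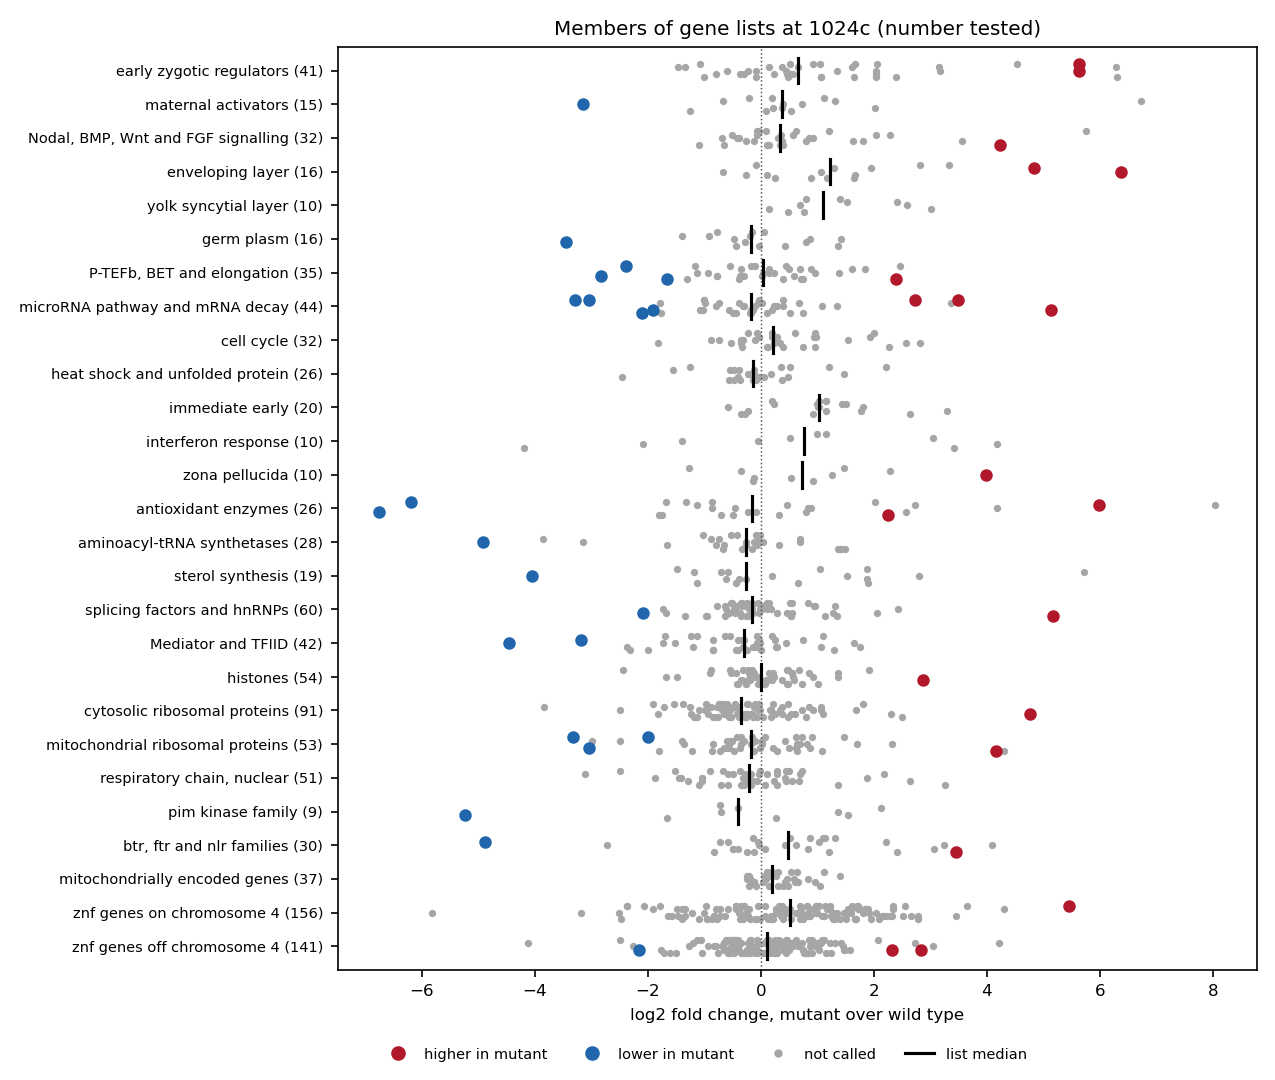
Log2 fold change of mutant over wild type at 1024c for each tested member of 27 gene lists, 1 list per row with its number of tested members. Large points are members called higher or lower, small points are members not called, black bars are list medians and the dotted line is the median of all genes tested (0.01). Called members are scattered over the lists, and most lists have called members on 1 side or none.

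The transcription machinery was examined because the study names CDK9. cdk9 (chromosome 21, 6136981 to 6150568), the kinase subunit of P-TEFb, had 420.1, 103 and 239.8 CPM in mutant replicates 1 to 3, against 72.6, 92.3 and 47.2 CPM in wild type replicates 1 to 3. Each mutant library lay above each wild type library, the nearest being mutant replicate 2 and wild type replicate 2, and the log2 fold change of 1.84 (SE 0.62) did not pass the test (adjusted p = 0.0969). Groups that do not overlap, in either direction, were seen in 18.7% of all genes tested. DESeq2 on the same counts gave a log2 fold change of 1.90 and an adjusted p of 0.0157, and the authors' deposited table gives 1.61 with a standard error of 0.58 and an adjusted p of 0.017. At 256c the log2 fold change was 2.56 (adjusted p = 0.0109), at Oblong 1.13 and at Sphere 0.49.

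Of 35 tested genes of P-TEFb, BET and elongation, 1 rose and 3 fell (11.4% called, against 3.99% of all genes tested). Without mutant replicate 1 the list had 0 higher and 1 lower, without mutant replicate 2 it had 1 and 2, and without mutant replicate 3 or any wild type library 0 and 2. ell, an elongation factor that suppresses pausing, had 671, 234 and 316 CPM in the mutant and 115, 57.1 and 60.3 CPM in wild type (log2 fold change 2.39, SE 0.68, adjusted p = 0.0466). supt5h, which encodes the DSIF subunit Spt5, had 17.1, 40.6 and 20.5 CPM in the mutant and 185, 250.1 and 113 CPM in wild type (log2 fold change -2.83, SE 0.55, adjusted p = 0.0035). ctr9 and leo1 encode subunits of the PAF complex, which travels with elongating polymerase. ctr9 had 7.78, 19.1 and 14.6 CPM in the mutant and 85.7, 78.9 and 49.8 CPM in wild type (log2 fold change -2.39, adjusted p = 0.00855), and leo1 had 31.1, 28.6 and 35.1 CPM in the mutant and 82.4, 118 and 102 CPM in wild type (log2 fold change -1.66, adjusted p = 0.0443). supt5h remained called under each of its 14 alternatives, ctr9 under 10, ell under 5 and leo1 under 2. The list median was 0.04, and -0.21 when nuclear totals without TMM were used, where the median of all genes was -0.18.

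Of 42 Mediator and TFIID genes, which link activators to polymerase, 2 fell and none rose (4.76% called, against 3.99% of all genes tested). ccnc, the cyclin of the Mediator kinase module, had 6.22, 2.39 and 21.9 CPM in the mutant and 139, 123 and 31.5 CPM in wild type (log2 fold change -3.19, SE 0.68, adjusted p = 0.00729). taf7, a TFIID subunit gene, had a single count in the mutant and 24.7, 6.71 and 15.7 CPM in wild type, or 27.6 for wild type over mutant (95% counting interval 4.51 to 1131; adjusted p = 0.0162), and its call was lost without mutant replicate 1 or 3 or wild type replicate 1. The summed level of the list was 1472, 1502 and 1920.1 CPM in the mutant libraries, each below the 2336, 1977 and 2014 CPM of the wild type libraries. Of the lists examined, the antioxidant enzymes also had sums that did not overlap, there with the mutant higher. Over so many lists some sums can be apart by chance, since 3 against 3 libraries allow no permutation p below 0.1. Neither sum was tested. In the Mediator and TFIID list 12 of 42 members had a positive log2 fold change. The list median was -0.30, against 0.01 over all genes tested, and it lay between -0.50 and -0.26 when 1 library was left out. Of 60 splicing factor and hnRNP genes 1 rose, sf3a2, and 1 fell, srsf7a, both described above (3.33% called), with a list median of -0.16.

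Genes of microRNA action and mRNA decay changed in both directions, 3 higher and 4 lower of 44 tested (15.9% called, against 3.99% of all genes tested), with a list median of -0.17. The list had 2 higher and 1 lower without wild type replicate 2, 3 and 1 without mutant replicate 2, and 1 and 2 without both mutant replicate 1 and wild type replicate 3. ago3b, an Argonaute gene, had 322, 52.5 and 92.1 CPM in the mutant and 9.89, 0 and 2.62 CPM in wild type (log2 fold change 5.13, SE 0.98, adjusted p = 0.00291). pum3, of the Pumilio family, had 145, 127 and 177 CPM in the mutant and 14.8, 18.5 and 5.24 CPM in wild type (log2 fold change 3.49, adjusted p = 0.00222). dgcr8, the partner of Drosha in cutting primary microRNAs, had 213, 85.9 and 98.0 CPM in the mutant and 28.0, 13.4 and 18.4 CPM in wild type (log2 fold change 2.72, adjusted p = 0.00565). Among the falls, cnot4b and cnot3b encode subunits of the CCR4-NOT deadenylase complex. cnot4b had 9.33, 14.3 and 4.39 CPM in the mutant and 106, 106 and 55.1 CPM in wild type (log2 fold change -3.29, adjusted p = 0.00397). cnot3b had 12.4, 2.39 and 5.85 CPM in the mutant and 18.1, 131 and 28.8 CPM in wild type (log2 fold change -3.04, adjusted p = 0.0275), and it was not called without wild type replicate 2 or mutant replicate 2 or 3, where its adjusted p was 0.33, 0.12 and 0.101. xrn1, given above, and pan3, of a deadenylase that shortens poly(A) tails, were the others, pan3 with a log2 fold change of -1.92 (adjusted p = 0.0479). pum3 and cnot4b were called under each of their 14 alternatives, and dgcr8 was lost without wild type replicate 2.

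Genes of cell death, stress and the cell cycle were examined as well. casp3a, an executioner caspase gene, had 163, 64.5 and 102 CPM in the mutant and 14.8, 16.8 and 7.87 CPM in wild type (log2 fold change 3.03, adjusted p = 0.00383), and it was called under 13 of its 14 alternatives. No member of 4 lists of stress and the cell cycle was called by edgeR. Of 20 immediate early genes 2 had an unadjusted p under 0.05 and DESeq2 called 1 higher. Of 10 interferon response genes 6 had one, and DESeq2 called 1 higher and 1 lower. Of 26 heat shock and unfolded protein genes 3 had one, and DESeq2 called 2 higher and 1 lower. Of 32 cell cycle genes 6 had one, and DESeq2 called 2 higher. Over all 12498 genes tested, 2219 had an unadjusted p under 0.05, and DESeq2 called 557 higher and 433 lower. Mutant replicate 2 was also the highest library for the immediate early gene fosab, with 384, 3886 and 46.8 CPM in the mutant and 34.6, 141 and 267 CPM in wild type (adjusted p = 0.151). The same held for isg15, an interferon-stimulated gene, with 328, 2719 and 98.0 CPM in the mutant and 21.4, 128 and 231 CPM in wild type (adjusted p = 0.176), and for cdkn1a, the CDK inhibitor gene, with 432, 2583 and 127 CPM in the mutant and 59.4, 99.0 and 375 CPM in wild type (adjusted p = 0.221). The part of this library's state in the calls it carries was not tested.

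Among metabolic lists, the antioxidant enzymes had 2 higher and 2 lower of 26 tested (15.4% called, against 3.99% of all genes tested). Without mutant replicate 1 or 3 or wild type replicate 1 or 2 there were 1 higher and 1 lower. Beside prdx1, catalase (cat) had 198, 57.3 and 87.7 CPM in the mutant and 23.1, 30.2 and 18.4 CPM in wild type (log2 fold change 2.25, SE 0.62, adjusted p = 0.0373). Beside cbr1l, gpx4a, a glutathione peroxidase gene that protects membrane lipids, had no count in the mutant and 11.5, 8.39 and 7.87 CPM in wild type, at least 5.51-fold lower (adjusted p = 0.0262). Of 19 sterol synthesis genes, hmgcrb, which encodes HMG-CoA reductase, fell to 12.4, 2.39 and 4.39 CPM in the mutant, against 168, 107 and 60.3 CPM in wild type (log2 fold change -4.05, SE 0.90, adjusted p = 0.00968), and no other was called. Of 28 aminoacyl-tRNA synthetases, sars1 fell and none rose. The share called was 5.26% in the sterol list and 3.57% in the synthetase list, against 3.99% of all genes tested. cat was called under 4 of its 14 alternatives, gpx4a under 5 of 12 and hmgcrb under 11 of 14. The call of cat was lost without any 1 library but mutant replicate 2, that of gpx4a without any but wild type replicate 3, and that of hmgcrb without mutant replicate 2 or 3 or wild type replicate 1.

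Ribosomal and respiratory genes gave few calls. The share called was 1.1% of cytosolic and 7.55% of mitochondrial ribosomal protein genes and 1.85% of histone genes, against 3.99% of all genes tested. Of 91 cytosolic ribosomal protein genes, rps27.2 rose (143, 14.3 and 105 CPM in the mutant, 0, 6.71 and 2.62 CPM in wild type; log2 fold change 4.75, adjusted p = 0.00685) and none fell, with a list median of -0.35. Of 53 mitochondrial ribosomal protein genes 1 rose and 3 fell. mrpl21 had 54.5, 19.1 and 35.1 CPM in the mutant and 1.65, 1.68 and 2.62 CPM in wild type (adjusted p = 0.00641), and mrpl48, mrps15 and mrpl36 fell, with adjusted p of 0.0317, 0.0385 and 0.0482. The calls of mrps15 and mrpl36 were lost without any 1 of the 6 libraries, that of mrpl48 without any but wild type replicate 1, and that of mrpl21 without wild type replicate 2. None of 51 nuclear respiratory chain genes was called by edgeR (8 with an unadjusted p under 0.05, 2 higher by DESeq2), and none of 37 mitochondrially encoded genes by either tool (0 with an unadjusted p under 0.05). All 12498 genes tested gave 2219 with such a p, and 557 higher and 433 lower by DESeq2. Of 54 histone genes 1 rose, a copy listed as h3f3b.1 (chromosome 15, 47860045 to 47865063), with 112, 54.9 and 99.4 CPM in the mutant and 3.30, 13.4 and 21.0 CPM in wild type (log2 fold change 2.86, adjusted p = 0.0206). Histone genes include near-identical copies, and 2 identifiers carry the symbol h3f3b.1, so the split of reads between them is uncertain. The call was lost without mutant replicate 1 or 3 or wild type replicate 1 or 2.

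Gene families with many copies were treated with the same reserve. Of 156 znf genes on chromosome 4, the chromosome that carries the mir430 locus, 1 rose and none fell, with a list median of 0.52. This was 0.641% called, against 3.99% of all genes tested. The risen gene, znf1052, had 38.9, 329 and 433 CPM in the mutant and 1.65, 6.71 and 10.5 CPM in wild type (log2 fold change 5.45, SE 1.22, adjusted p = 0.0116), and its call was lost without wild type replicate 1 or 2. Of 141 znf genes elsewhere, znf346 and znf207a rose and znf143a fell (2.13% called). znf346 had 529, 203 and 370.0 CPM in the mutant and 64.3, 35.3 and 55.1 CPM in wild type (log2 fold change 2.83, adjusted p = 0.0126). Its call was lost without wild type replicate 2, and those of znf207a and znf143a without any 1 of the 6 libraries. Of 30 tested btr, ftr and nlr genes, families of innate immune receptors and ubiquitin ligases, nlrc8 rose and btr02 fell, with adjusted p of 0.0203 and 0.0223 (6.67% called). Of 9 pim kinase genes pimr201 fell (11.1% called). The call of nlrc8 was lost without mutant replicate 2 or 3 or wild type replicate 1 or 2, and that of btr02 without mutant replicate 1 or 3 or wild type replicate 1.

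Called genes often lay beside another gene called the same way. In 44 of the 232 higher genes, or 19.0%, the next tested gene on at least 1 side was also called higher. Such a neighbour was found for 3.58% of 12324 tested nuclear genes outside mir430. Among the 220 lower genes 40, or 18.2%, had a neighbour called lower, where 3.40% of the 12324 did. The 12324 leave out genes that were the only tested gene of their sequence, a condition not set for the 232 and the 220. None of these neighbours overlapped in position with the gene it stood beside. The rises formed 21 runs of adjacent genes and the falls 18, the longest of 4 genes in each direction. The longest run of rises was megf6a, emc1, ubr4 and her12 on chromosome 23 (21119592 to 21446985), and the longest runs of falls were rpap1, si:dkey-170l10.1, adprhl2 and cinp on chromosome 17 (31535764 to 31623222) and 4 clone-named genes on chromosome 2. Other pairs were prdx1 and gng5, acsl3b and ap1s3b on chromosome 2, ndc80 and mki67 on chromosome 12, tia1l and dgcr8 on chromosome 5, usf1 and gkup on chromosome 15, and nrd1b and tdrd5 on chromosome 22. These runs and the genes in them were picked after their values were seen, and no test of placement was made.

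On a larger scale, windows of 10000000 bases with at least 20 tested genes were counted, 140 in all. Those named here were picked for their counts, with no test, and over all genes tested outside mir430 1.77% were lower and over all genes tested 1.86% were higher. Chromosome 15 from 20000001 to 30000000 held 10 lower and no higher genes of 111 tested, among them supt5h, git1, usf1 and rnf26. Chromosome 2 from 10000001 to 20000000 held 7 lower and 1 higher of 68, among them vps4b and xrn1, and chromosome 4 from 1 to 10000000 held 8 lower and 1 higher of 132, among them lsm8, ccnc and nfyba. Higher genes were most frequent on chromosome 2 from 1 to 10000000, with 11 of 98, including prdx1, gng5, polr2d and nyap2b. Chromosome 23 from 20000001 to 30000000 held 11 higher of 111, including ddost, ubr4 and her12. In 55 windows no gene was lower and in 40 no gene was higher, and chromosomes 1 and 13 had 14 and 7 higher genes with none lower, of 482 and 450 tested. Within 2 Mb of the mir430 locus 1 of 32 tested genes was called, znf1052, and within 5 Mb 1 of 85 was higher and 1, the clone-named BX649328.1, was lower, counts too small to set apart from the shares over all genes.

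The authors' deposited table for this stage lists 22974 genes, with 199 marked as higher and 170 as lower in the mutant, 124 of the lower ones outside mir430. The genes it marks have adjusted p of at most 0.00995 and log2 fold changes of at least 2.01 in size, a stricter rule than the threshold used here. Of the 232 higher genes here, 187 are marked higher in the authors' deposited table, and of the 220 lower genes 123 are marked lower there. All 232 and all 220 have an adjusted p under 0.05 and the same sign in that table. Both analyses start from the same counts, so this overlap is no independent support.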

How the data were processed

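Newly made RNA of whole embryos, labelled with s4UTP, enriched and treated with IAA, was sequenced with a strand-keeping kit and no poly(A) step, per the labels' protocols. The raw counts per gene are the authors' deposited table, and per the submitters' processing notes the tools included Trimmomatic, HISAT, featureCounts, SAMtools and Picard with the GRCz11 build, versions not given in the sources used here. The meaning of "filtered" in its column names is not stated there. The authors' deposited table of this comparison holds log2 fold changes and p-values, adjusted by DESeq2 per the submitters' processing notes.

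From the counts, edgeR 4.0.16 (R 4.3.3) fitted quasi-likelihood models to 24 IAA libraries as 8 group means. CPM is relative to the sum of nuclear counts outside mir430. Library sizes and TMM factors came from nuclear genes outside mir430, because mitochondrial counts dominate and the locus is deleted, and filterByExpr kept 12498 of 32520 genes. The Benjamini-Hochberg adjustment ran over all genes tested with a threshold of 0.05. Nuclear counts outside mir430 per 1024c library ran between 418998 and 861331, which limits what can be called. Intervals cover counting error only. Levels are for whole embryos, where fewer cells of a type and less RNA per cell cannot be told apart.

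Named genes followed a rule: cdk9 and the mir430 sum, the 12 largest changes, 10 smallest adjusted p and 6 highest levels per direction among called, non-overlapping genes that carry a gene symbol and reach 10 CPM in either group, up to 3 called members per list and direction (the 2 of highest level where fewer than 2 were called), and the 5 smallest adjusted p per stage difference. Members and gene lists were chosen with earlier results of these data known. Replicate numbers were not used to pair the libraries in the main fit, since no shared origin is stated for them. Alternatives were DESeq2 1.42.0, other scalings and filters, the 6 libraries of 1024c alone, a replicate block and each library left out. The test was tried on simulated counts. The wild type library without IAA was left out. Gene lists held between 9 and 156 tested members, and members below the count filter were not tested. Some members of the named lists, and 1 list, are not reported here.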

Additional observations from a re-analysis of the deposited data

Results flagged for a closer look

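A single gene, lsm8 (chromosome 4, 9536860 to 9539424), had a genotype difference at 1024c that departed from that at Oblong in edgeR's test of the difference. Its product belongs to the LSm ring that binds U6 RNA in the nucleus. At 1024c it had 0 counts in the mutant libraries, against 11.5, 13.4 and 21.0 CPM in the wild type libraries. At Oblong it had 6.73, 9.49 and 11.7 CPM in the mutant libraries, against 1.52, 1.96 and 3.26 CPM in the wild type libraries, so the genotypes stood the other way round. These wild type values rest on few counts, and the genotype difference at Oblong was not itself called. The fitted difference between the 2 log2 fold changes was -8.84 (adjusted p = 0.0143), a size that rests on a group without counts and is no measured fold. At 256c the mutant libraries had 4.20, 1.51 and 3.98 CPM, below the wild type libraries with 29.1, 23.8 and 55.6 CPM. The departure was not called with the replicate block or without mutant replicate 1 or 3, nor without both mutant replicate 1 and wild type replicate 3.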

How the results depend on the processing

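The counts of calls depended on the processing. None of the 86 called genes followed changed direction under an alternative. They were picked as called genes, many by a rule that asks for groups that do not overlap. This made a change of direction unlikely beforehand, so its absence is no measure of stability. Of the 86 genes, 32 were called under each alternative run for them. DESeq2 called 557 higher and 433 lower genes, and it found 240 and 21 stage differences against 256c and Sphere, where edgeR found 0. Nuclear totals without TMM gave 148 higher genes and moved the median over all genes to -0.18, no filter on low counts gave 524 higher, and the 6 libraries of 1024c alone gave 120 higher and 140 lower. Leaving out 1 library gave 97 to 254 higher genes, 119 to 203 lower genes and 0 to 1 stage differences against Oblong, the 0 coming without mutant replicate 1 or 3. Without both wild type replicate 3 and mutant replicate 1, an alternative chosen after seeing the data, 141 genes were higher, 104 lower and 0 differed from Oblong. Replicate numbers share no stated origin. At 1024c the deviations of like-numbered libraries correlated at 0.39, -0.10 and 0.29, and those of unlike numbers at between -0.43 and 0.25. The like-numbered values were 0.10, 0.002 and 0.08 at 256c, 0.23, 0.18 and 0.13 at Oblong and 0.11, 0.62 and -0.05 at Sphere. Whether like-numbered libraries share an origin was not tested. With the replicate block 219 genes were higher, 199 lower and 0 differed from Oblong. DESeq2 moved cdk9 past the threshold (1.90, adjusted p = 0.0157), where its adjusted p ran up to 0.411 over the alternatives. As a share of all counts the mir430 difference was -0.922 percentage points. The causes of these shifts were not tested. In the simulated counts, planted changes of 2 log2 units or less mostly went uncalled, and the parts of depth and of spread between libraries were not tested.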

Other observations

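Genes with the smallest adjusted p in the tests between stages, none of which but lsm8 passed, are given here with their values at the stages compared. net1 and klf2a are signalling and transcription factor genes of the early embryo. net1 had 115, 1497 and 834 CPM in the mutant and 279, 369 and 1009.6 CPM in wild type at 1024c (log2 fold change 0.56, adjusted p = 0.845), with a log2 fold change of 7.95 at 256c. The wild type libraries of 256c had 0, 0 and 3.48 CPM of net1, so the size of 7.95 is uncertain. klf2a had 311, 3946 and 1822 CPM in the mutant and 607, 1056 and 2872 CPM in wild type at 1024c (log2 fold change 0.42, adjusted p = 0.886), with 6.15 at 256c. foxd5 had a log2 fold change of 0.92 at 1024c and 6.38 at 256c. The log2 fold changes of these 3 genes were thus nearer 0 at 1024c than at 256c, and the departure was not called for any of them. Against Sphere, scp2b had a log2 fold change of 2.86 at 1024c and -2.07 at Sphere.

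Among abundant genes in lists without a call, the libraries of each genotype spread over several fold. wee1, the kinase that holds cells before mitosis, had 333, 2063 and 1209 CPM in the mutant and 399, 665 and 2082 CPM in wild type (adjusted p = 0.947). btg1, an antiproliferative gene, had 345, 2998 and 823 CPM in the mutant and 261, 317 and 957 CPM in wild type (adjusted p = 0.406). hspa8, the constitutive HSP70 gene, had 99.6, 458 and 398 CPM in the mutant and 229, 302 and 519 CPM in wild type (adjusted p = 0.958). apoeb, an apolipoprotein gene of the yolk syncytial layer, had 770.1, 6653 and 3461 CPM in the mutant and 656, 1369.8 and 4372 CPM in wild type (adjusted p = 0.736). None of these 4 genes passed the test.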
